A study of Mus musculus with 7 samples.

Results

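The 10 imprinted growth genes described here are Mest, Dlk1, Dio3, Peg3, Peg10, Plagl1, Cdkn1c, Grb10, Ndn and Sgce, taken as a list of names. The list was chosen with earlier results of these data known, so counts over it describe these arrays and test nothing. All 10 had a probe on the array, 14 probes in all among 41174, and they are 10 of the 17047 genes that could be named. Their levels were followed across 7 mouse samples hybridised to 1 one-colour array each. Tissue grown from mouse embryonic stem (ES) cells towards stomach was compared with embryonic stomach and with adult organs. In the first ES-derived sample (day 42), the culture had been kept for 42 days in serum-free medium with EGF at 50 ng/mL, FGF10 at 100 ng/mL, R-spondin1 at 250 ng/mL, Wnt3a and Noggin. The second (day 46) had the same 42 days and then 4 days with Shh at 100 ng/mL and Bmp4 at 10 ng/mL. Whether EGF was kept in that last step is not given in the sources used here. The other samples were stomach primordium of ICR embryos at embryonic day 9.5 (E9.5) and adult stomach, esophagus, lung and intestine taken fresh from ICR mice. The age and number of the adult animals, any pooling, and the ES cell line and clone are not given either, and every group was 1 array.

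A genomically imprinted gene is transcribed mainly or solely from the copy inherited from 1 parent, because DNA methylation laid down in the egg or the sperm marks nearby control regions differently. Many imprinted genes act on growth before birth, in placenta, muscle, fat and mesenchyme, and several are known to be switched down after birth. Mest, Dlk1, Dio3, Peg3, Peg10, Plagl1, Ndn and Sgce are known as genes of the father's copy, and Cdkn1c as a gene of the mother's copy. Grb10 is used from the mother's copy in most tissues and from the father's copy in neurons. The array measures the summed RNA of both copies and cannot tell them apart.

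Promoter sequence was available in RefSeq (GRCm38.p6) for 7 of the 10 genes, as 10 windows of 300 bases (3 for Mest, a pair of which overlap, and 2 for Grb10) that run from 250 bases before to 50 bases after a transcription start. The windows of 3 genes are shown because these genes had the largest differences between day 42 and adult stomach, and because Dlk1 and Dio3 lie in the same imprinted domain of chromosome 12 but differed in their levels. Each window is written 5′ to 3′ on the gene's strand with every CG, the dinucleotide at which mammalian DNA is methylated, in capitals. The windows are Mest at chr6:30737800-30738099, Dlk1 at chr12:109452573-109452872 and Dio3 at chr12:110278980-110279279, each on the plus strand.
Mest: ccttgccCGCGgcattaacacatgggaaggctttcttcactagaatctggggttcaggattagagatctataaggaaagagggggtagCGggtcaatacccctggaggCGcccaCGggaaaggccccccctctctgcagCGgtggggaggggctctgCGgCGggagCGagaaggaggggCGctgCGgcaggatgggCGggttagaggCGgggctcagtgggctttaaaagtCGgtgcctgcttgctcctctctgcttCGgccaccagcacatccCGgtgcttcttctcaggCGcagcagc
Dlk1: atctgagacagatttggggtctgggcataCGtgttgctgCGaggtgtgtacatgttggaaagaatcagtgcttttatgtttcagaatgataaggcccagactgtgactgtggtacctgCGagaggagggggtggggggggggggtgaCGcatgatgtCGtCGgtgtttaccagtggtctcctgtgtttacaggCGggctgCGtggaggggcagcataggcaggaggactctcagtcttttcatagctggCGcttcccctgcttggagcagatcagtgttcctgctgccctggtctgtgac
Dio3: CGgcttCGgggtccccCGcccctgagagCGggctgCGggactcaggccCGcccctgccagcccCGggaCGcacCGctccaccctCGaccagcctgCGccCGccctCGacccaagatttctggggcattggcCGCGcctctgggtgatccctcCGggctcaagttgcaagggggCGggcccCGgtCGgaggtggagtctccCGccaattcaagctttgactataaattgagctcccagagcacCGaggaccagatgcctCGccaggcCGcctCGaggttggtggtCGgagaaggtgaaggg
The Mest window held 17 CG, the Dlk1 window 9 and the Dio3 window 25. Over the 10 windows of the imprinted genes the median was 15 CG, and over 32851 promoter windows of the same length it was 7. The letters TATAAA, searched on both strands, were found in the Dio3 window and in none of the other 9, against 13.6% of all windows. GGGCGG, searched in the same way, was in 7 of the 10 windows (35.7% of all windows) and CCAAT in 2, those of Dio3 and Peg3 (37.4% of all windows). The 7 include every Mest window, with the overlapping pair, so they are not 7 separate genes. The motifs were counted separately even where matches overlap, and a match is a run of letters and not a measured binding site.

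Levels are log2 of the processed intensity minus the 75th percentile of the same array, so 0 is the level of a probe at that percentile and each unit is a factor of 2. Levels compare a gene between arrays and never gene with gene, since each probe has its own brightness. A single array per group allows no test, and the only measure of error is technical: the SD, over genes with several probes, of the difference that probes of the same gene gave for a pair of arrays. It was 0.64 for E9.5 against adult stomach, 0.86 and 0.84 for day 42 and day 46 against adult stomach, 0.88 and 0.87 for day 42 and day 46 against E9.5 stomach, and 0.51 between the ES-derived arrays. Between adult stomach and the other adult organs it was 0.47 to 0.56. None of these includes the spread between animals or cultures. The 4 adult organs shared 1 slide and the other 3 arrays were on a slide each, so slide and group cannot be told apart in any comparison with an ES-derived or embryonic array, those between the 3 included. The ES-derived arrays were also read with another version of the scanner software than the other 5.

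Between 66.1% (day 42) and 82.7% (day 46) of probes were well above background. Spike-in controls on the day 46 array were dimmer than on the other arrays by a log2 difference of -2.91. On the day 42 array they were brighter than on the other arrays by 1.13. The adult labels were checked against marker lists: 8 of 8 stomach markers in adult stomach (median level 9.0), 7 of 7 intestine markers in intestine (8.03), 5 of 5 lung markers in lung (7.21) and 6 of 6 squamous markers in esophagus (6.55) were above background. Esophagus also held skeletal muscle markers (median 8.78) and 5 of 5 lung markers, with Sftpc at 5.12 and Scgb1a1 at 5.44. Adult stomach held 6 of 6 squamous markers (median 4.53). In E9.5 stomach 6 of 6 foregut markers were above background (median -0.09), and Gkn1, Gkn2, Tff2 and Pgc, markers of mature stomach, were not. In the ES-derived tissue 7 of 8 stomach markers (day 42, median -1.24, without Gkn1) and 8 of 8 (day 46, median -1.61) were above background. Of the foregut markers 4 of 6 were above background at day 42 (median -4.15, without Barx1 and Shh) and 5 of 6 at day 46 (median -3.47, without Shh). All 6 hepatocyte markers were also above background in the ES-derived tissue (medians 5.33 and 4.17), against medians of -6.05 in E9.5 stomach and -2.55 in adult stomach. The same held for 4 of 4 macrophage markers (4.32 and 3.74, against -4.29 in E9.5 stomach and 0.52 in adult stomach) and 6 of 6 cardiac muscle markers (5.03 and 4.30, against -0.90 in adult stomach and a highest median of 4.02, in lung, on the other arrays). Against adult stomach, Apoa1 of the hepatocyte list and Actc1 of the cardiac list went the other way. Apoa1 was at 2.56 (day 42) and 1.38 (day 46) against 5.37, and Actc1 at 3.51 and 3.11 against 4.87. In whole-tissue RNA, fewer cells of a type and less RNA per cell cannot be told apart, which holds for every value below.

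E9.5 stomach had the highest level of the 7 arrays for 8 of the 10 genes, Dio3 and Sgce being the exceptions. For Plagl1 (0.21), Dlk1 (0.83) and Ndn (0.86) its lead over the next array was under the SD between probes. Another Grb10 probe than that used was highest at day 46. Over all 15873 genes above background on at least 1 array, E9.5 stomach was the highest in 25.5%. Against adult stomach, Mest, Peg10, Dlk1, Peg3, Grb10, Cdkn1c and Ndn were at least 4-fold higher in E9.5 stomach, 7 of the 10, and none was 4-fold lower. Of all 15090 genes measured in that pair, 11.5% passed 4-fold upward and 18.1% downward. The median difference of the 10 genes was 4.48 on the log2 scale, with that of all genes at -0.03. The 6 genes Mest, Dlk1, Peg3, Peg10, Grb10 and Ndn had higher levels in each of E9.5 stomach, day 42 and day 46 than in any of the 4 adult organs. This held for 10.1% of all 15873 genes. For Grb10 it depends on the probe, failing on 1 of its probes, and the limits for each gene are given below.

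**Figure D1:**
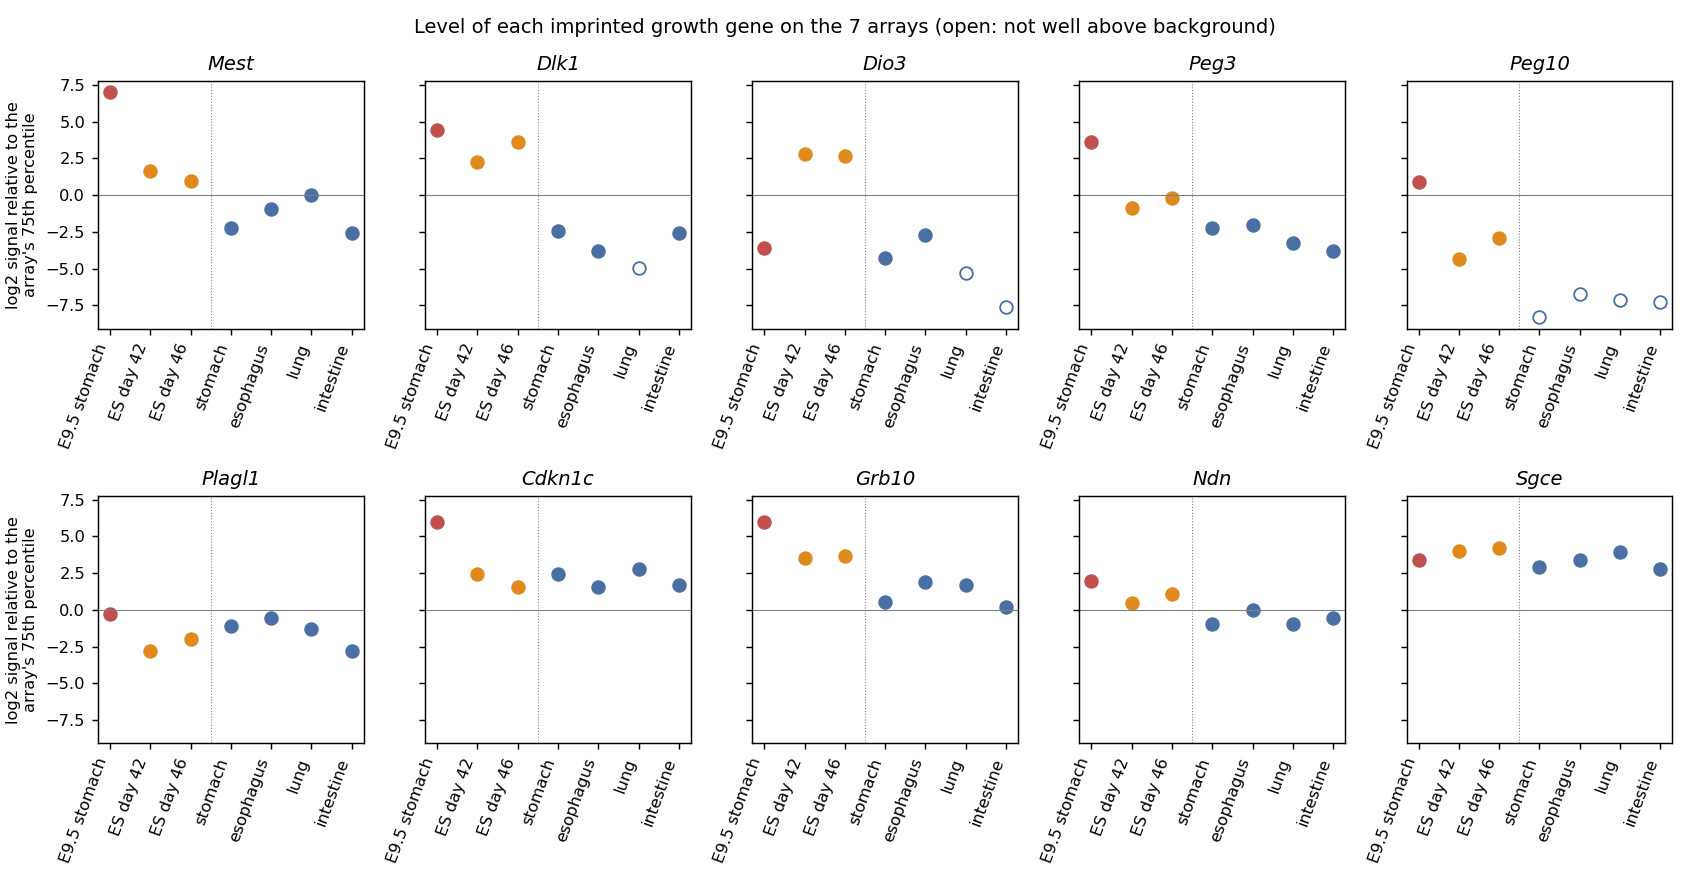
Level of each of the 10 genes on each of the 7 arrays, as log2 of processed intensity minus the array's 75th percentile, with open symbols for probes not well above background. E9.5 stomach is highest for 8 genes, day 42 for Dio3 and day 46 for Sgce.

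Mest encodes a protein of the alpha/beta-hydrolase fold family that is abundant in embryonic mesoderm and in expanding fat tissue. Its level was 7.0 in E9.5 stomach, 1.67 at day 42 and 0.95 at day 46. In the adult organs it was 0.03 in lung, -0.94 in esophagus, -2.27 in stomach and -2.56 in intestine. The E9.5 array thus stood far above the rest, the ES-derived arrays came next, and no adult organ reached them. The difference between E9.5 and adult stomach was 9.26, or 614-fold, rank 11 of 15090 genes counted from the highest. Day 42 was 15.3-fold and day 46 9.32-fold above adult stomach. In the order of the 7 levels, each gap between neighbours exceeded the SD between probes except that between stomach and intestine.

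Dlk1, a membrane protein related to the Notch ligands that restrains fat cell differentiation, and Dio3, the deiodinase that inactivates thyroid hormone, mark opposite ends of 1 imprinted domain on chromosome 12. Dlk1 had a level of 4.42 in E9.5 stomach, 3.59 at day 46 and 2.28 at day 42. It was -2.41 in adult stomach, -2.59 in intestine, -3.82 in esophagus and -4.98 in lung, where it was not well above background. The 3 immature samples lay above all adult organs with no overlap. Against adult stomach Dlk1 was 114-fold higher in E9.5 stomach, 64.0-fold at day 46 and 25.8-fold at day 42.

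Dio3 showed another pattern. Its level was 2.83 at day 42 and 2.66 at day 46, but -3.58 in E9.5 stomach. In the adult organs it was -2.70 in esophagus, -4.26 in stomach, -5.29 in lung and -7.60 in intestine, the last pair not well above background. Dio3 was thus high in the ES-derived tissue alone, and its E9.5 level lay inside the adult range. Against adult stomach it was 136-fold higher at day 42 and 121-fold higher at day 46, ranks 44 of 14819 and 40 of 15727 genes. Against E9.5 stomach it was 85.4-fold higher at day 42 and 75.6-fold higher at day 46. The difference between E9.5 and adult stomach, 0.67, was close to the SD between probes (0.64), and it was -0.24 with another background correction (normexp). The hepatocyte, macrophage and cardiac muscle markers given above also had a higher median in the ES-derived tissue than on the other 5 arrays, and their part in the level of Dio3 was not tested.

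Peg3 and Plagl1 encode zinc finger proteins that act on transcription, and Plagl1 is known as a regulator of other imprinted genes in mouse. Peg3 had a level of 3.63 in E9.5 stomach, -0.22 at day 46 and -0.85 at day 42, against -2.04 in esophagus, -2.23 in stomach, -3.23 in lung and -3.83 in intestine. The immature samples again lay above every adult organ, although the ES-derived arrays were nearer to the adult organs than to E9.5 stomach. Peg3 was 58.2-fold higher in E9.5 than in adult stomach, 4.03-fold higher at day 46 and 2.60-fold higher at day 42. Its second probe gave log2 differences of 5.93, 1.58 and 1.39 where the first gave 5.86, 2.01 and 1.38, so that the 4-fold difference at day 46 rests on the choice of probe.

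Plagl1 did not separate immature from adult samples. Its levels were -0.31 in E9.5 stomach, -0.52 in esophagus, -1.12 in adult stomach, -1.30 in lung, -1.99 at day 46, -2.79 in intestine and -2.83 at day 42. The groups overlapped, with the ES-derived arrays at or near the lower end, and only 1 of the 6 gaps between neighbouring levels exceeded the SD between probes. Day 42 differed from adult stomach by -1.71 and from E9.5 stomach by -2.52, a 5.72-fold lower level.

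Peg10 and Sgce are adjacent genes on chromosome 6. Peg10 derives from a retrotransposon and is needed for the mouse placenta. Sgce encodes epsilon-sarcoglycan, a membrane protein of the dystrophin-associated complex. Peg10 was above background in the 3 immature samples alone, with levels of 0.90 in E9.5 stomach, -2.90 at day 46 and -4.34 at day 42. Its adult signals, from -8.32 in stomach to -6.70 in esophagus, were not well above background and have no order. A fold against such an array is a lower bound: the dimmest detected probe of that array, or the gene's own signal if brighter, stands in for the dim value. On that basis Peg10 was at least 148-fold higher in E9.5 than in adult stomach, at least 10.6-fold higher at day 46 and at least 3.93-fold higher at day 42. The bounds hold for the processed intensities alone. With normexp these log2 differences shrank from 7.21, 3.41 and 1.98 to 3.93, 0.52 and 0.00, below the bounds.

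Sgce had the smallest range of the 10 genes over the 7 arrays, 1.39. Its levels were 4.18 at day 46, 4.04 at day 42, 3.91 in lung, 3.43 in esophagus, 3.36 in E9.5 stomach, 2.90 in adult stomach and 2.79 in intestine. None of the 6 gaps between neighbours in that order exceeded the SD between probes, but pairs farther apart did: lung was 1.01 above adult stomach and 1.12 above intestine. Against adult stomach it was 2.20-fold higher at day 42 and 2.42-fold higher at day 46, and 0.46 higher on the log2 scale in E9.5 stomach, which is under the SD between probes. These values are of the probe used. The second probe gave 0.74 for E9.5 minus adult stomach, which is over that SD of 0.64.

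Cdkn1c, Grb10 and Ndn act as brakes on growth. Cdkn1c encodes the cyclin-dependent kinase inhibitor p57Kip2. Its level was 5.99 in E9.5 stomach and lay between 1.57 (esophagus) and 2.78 (lung) on all 6 other arrays, with 2.47 at day 42, 1.59 at day 46, 2.47 in adult stomach and 1.67 in intestine. E9.5 stomach alone was high, and the ES-derived arrays lay within the adult range. The level in E9.5 was 11.5-fold that of adult stomach, whereas day 42 differed from adult stomach by 0.01 and day 46 by -0.88. Against E9.5 stomach Cdkn1c was 11.4-fold lower at day 42 and 21.1-fold lower at day 46.

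Grb10 encodes an adaptor that binds the insulin and IGF1 receptors and dampens their signal. The probe used had a level of 5.98 in E9.5 stomach, 3.66 at day 46 and 3.51 at day 42, and of 1.87 in esophagus, 1.70 in lung, 0.56 in adult stomach and 0.18 in intestine. On this probe all 3 immature samples were above all adult organs. On 1 of the other probes the ES-derived arrays (-3.21 at day 42 and -2.64 at day 46) lay below esophagus (-2.48). On the third the immature samples again lay above all adult organs, the nearest levels being day 42 (-0.36) and esophagus (-2.46). There day 46 (0.92) and not E9.5 stomach (0.33) was the highest array. By the probe used, Grb10 was 43.1-fold higher in E9.5 than in adult stomach, 8.58-fold at day 46 and 7.72-fold at day 42. The 3 probes of the gene disagreed in the ES-derived tissue: for day 42 against adult stomach they gave log2 differences of 2.95, 0.35 and 2.92, and for day 46 3.10, 0.91 and 4.21. For E9.5 against adult stomach all were high, at 5.43, 5.33 and 3.62. All are listed under the same transcript accession.

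Ndn (necdin), a protein of the MAGE family with growth-restraining activity in neurons, had the smallest separation. Its level was 1.95 in E9.5 stomach, 1.08 at day 46, 0.48 at day 42, 0.02 in esophagus, -0.58 in intestine, -0.94 in lung and -0.98 in adult stomach. The immature samples were above every adult organ, but the gap between day 42 and esophagus was within the SD between probes. Against adult stomach Ndn was 7.61-fold higher in E9.5 stomach, 4.18-fold at day 46 and 2.75-fold at day 42.

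Mest, Dlk1, Peg3, Peg10, Grb10 and Ndn were therefore the 6 of 10 genes whose lowest immature level lay above the highest adult level, and 0 of 10 lay below. Over all 15873 genes 10.1% lay above and 6.77% below in this way. For Grb10 this depends on the probe and failed on 1 of its probes, as given above. Cdkn1c, Dio3, Plagl1 and Sgce overlapped between the immature and adult samples. The count was 5 to 7 under the other scalings and corrections and when 1 adult organ was left out. The 3 immature samples and the 4 adult organs are different tissues and not replicates.

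**Figure D2:**
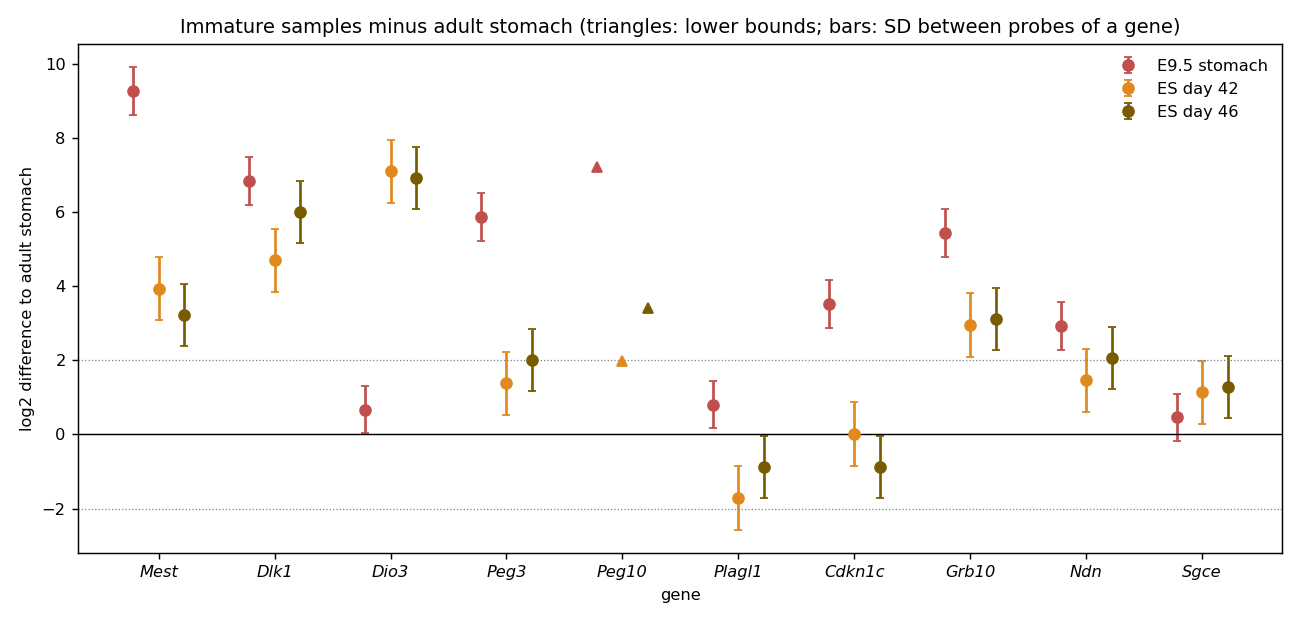
Log2 difference of each gene from adult stomach for E9.5 stomach, day 42 and day 46, with lines for the SD between probes and triangles for lower bounds. On the probes used, Mest, Dlk1 and Grb10 are at least 4-fold higher in all 3, Dio3 in the ES-derived tissue alone, and Cdkn1c in E9.5 stomach alone.

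Compared with adult stomach, Mest, Dlk1, Dio3 and Grb10 were at least 4-fold higher at day 42, 4 of 10 genes against 7.39% of 14819 genes, and none was 4-fold lower (10.3% of all genes). At day 46 Peg3, Peg10 and Ndn joined them, 7 of 10 genes against 6.86% of 15727, and again none was 4-fold lower (9.91%). These calls are of the probes used. Another Grb10 probe gave log2 differences of 0.35 at day 42 and 0.91 at day 46, under 4-fold, and the last gave 2.92 and 4.21. The other Peg3 probe gave 1.58 at day 46, also under 4-fold. At 2-fold the day 42 counts were 8 of 10 higher (20.2% of all genes) and 1 lower (22.6%), the lower gene being Plagl1. The median difference of the 10 genes was 1.72 at day 42 and 2.58 at day 46, with the median of all genes at 0.00 in both. Both comparisons use the same adult stomach array, as does that of E9.5 with adult stomach, so they are not independent of each other.

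Compared with E9.5 stomach, the ES-derived tissue had lower levels of most of the genes. At day 42, Mest, Dlk1, Peg3, Peg10, Plagl1, Cdkn1c and Grb10 were at least 4-fold lower, 7 of 10 genes against 11.5% of 14695, and Dio3 alone was 4-fold higher (17.1% of all genes). Mest was 40.1-fold, Peg10 37.7-fold and Peg3 22.4-fold lower. The call of Grb10 depends on the probe: against E9.5 stomach the probe used gave -2.48 at day 42 and -2.33 at day 46, another gave -4.98 and -4.42, and the last gave -0.69 and 0.59. At day 46, 5 genes were at least 4-fold lower (11.6% of 15701 genes) and Dio3 alone higher (16.1%). Dlk1 (-0.83) and Plagl1 (-1.68) no longer passed 4-fold, and Mest was 65.9-fold lower. The median difference of the 10 genes was -2.50 at day 42 and -2.0 at day 46. On the probes used, Dlk1 at day 46 and Sgce at both days differed from E9.5 stomach by less than the SD between probes. Ndn at day 46 differed by -0.86, just under that SD of 0.87.

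Marker lists of several cell types also differed between E9.5 stomach and the other samples. All 7 cell cycle markers were above background on every array, with a median level of 3.56 (2.34 to 6.34) in E9.5 stomach, -1.12 at day 42, -1.84 at day 46 and -2.91 to -1.44 in the adult organs. All 6 neural markers were above background in E9.5 stomach, with a median of 0.14 (-3.45 to 2.31), against 3 of 6 at day 42 (median -5.43), 5 of 6 at day 46 (-4.24) and medians of -3.71 to -2.49 in the adult organs. The 10 fibroblast and mesenchyme markers had medians of 2.36 in E9.5 stomach, 3.66 at day 42 and 3.46 at day 46, within the adult range of 1.56 to 3.95, but the members ran from -3.95 to 5.35 in E9.5 stomach and differed in opposite directions. Thy1 was at -3.95 there and at 2.06 in adult stomach, and Twist1 at 2.75 and -2.77. Between E9.5 stomach and the ES-derived tissue, epithelial markers (6 of 6 on each array) had medians of -0.24 against 5.12 at day 42 and 5.64 at day 46. Endothelial markers had -0.37 (5 of 5) against -5.42 (3 of 5) and -5.38 (5 of 5). Macrophage markers had -4.29 (3 of 4) against 4.32 and 3.74. Of 4 trophoblast markers, 1 was above background at day 42, 3 at day 46 and 2 in E9.5 stomach, with medians of -5.92 or lower on these arrays. The part of these cell types in the levels of the imprinted genes was not tested.

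**Figure D3:**
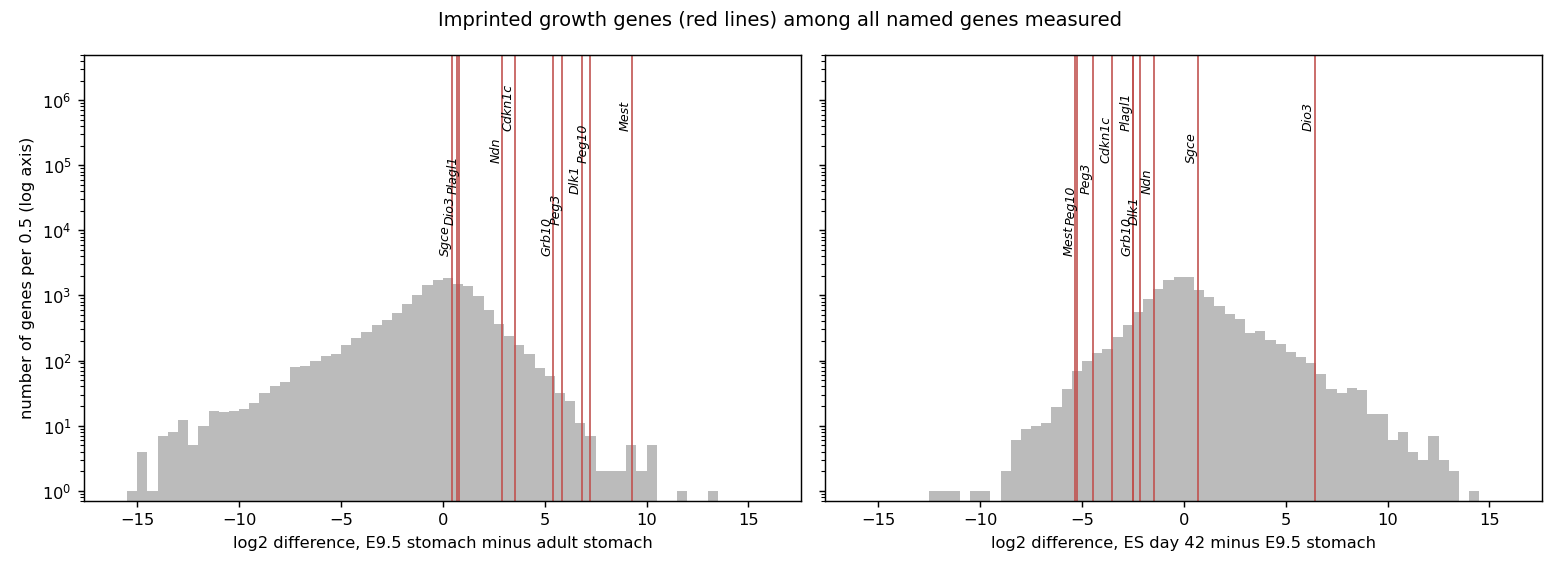
Histograms of the log2 difference of all named genes measured for E9.5 minus adult stomach (left) and day 42 minus E9.5 stomach (right), with the number of genes on a log axis and a red line for each of the 10 genes. On the left 7 lines lie at or above 2.93, and on the right Dio3 lies at 6.42 while 7 lines lie at or below -2.14.

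The day 46 sample differs from day 42 in medium, time and slide, which cannot be told apart. The spike-in controls of both arrays stood apart, in opposite directions, as given above. None of the 10 genes differed by 4-fold between them (1.04% of 15453 genes were 4-fold higher and 0.764% lower). At 2-fold, Peg10 (2.71-fold) and Dlk1 (2.48-fold) were higher, 2 of 10 genes against 9% of all genes, and none was lower (6.47%). Plagl1 (0.84), Peg3 (0.63), Ndn (0.61), Mest (-0.72) and Cdkn1c (-0.89) differed on the log2 scale by more than the SD between probes of 0.51. Grb10 (0.15), Sgce (0.14) and Dio3 (-0.18) did not. The probes disagreed here too: the other Grb10 probes gave 1.28 and 0.56, the other Sgce probe 0.76 and the other Peg3 probe 0.20. Centring the arrays on their medians shifted the median difference of all genes by -0.39. Peg10 (1.04) then remained 2-fold higher, Dlk1 (0.91) did not, and Cdkn1c (-1.29) and Mest (-1.11) were 2-fold lower. Peg3 (0.23), Ndn (0.21) and Plagl1 (0.44) came under the SD between probes, Dio3 was -0.58, and Grb10 and Sgce turned to -0.25 and -0.26. With quantile normalization Peg10 was 0.92. Quantile normalization turned Dio3 to 0.06.

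**Figure D4:**
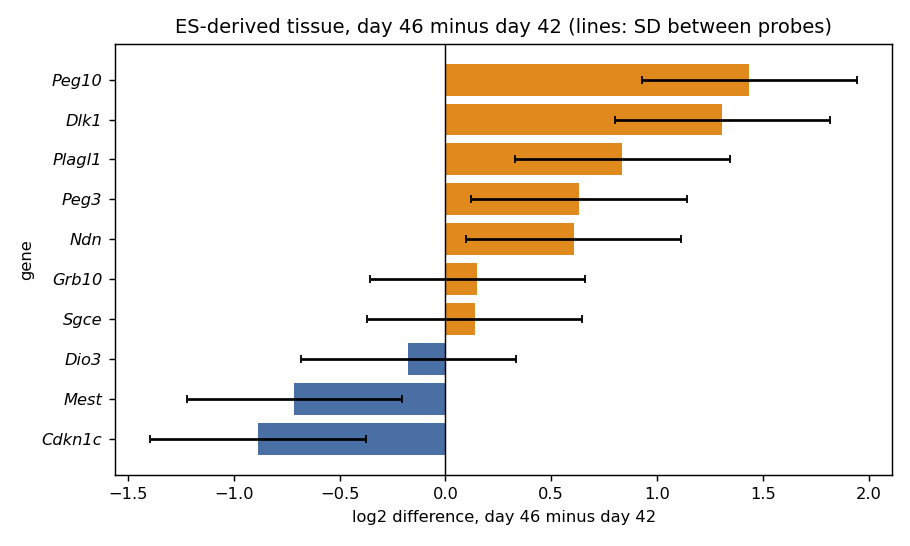
Log2 difference of each of the 10 genes between the ES-derived arrays (day 46 minus day 42), with bars from 0 and lines for the SD between probes. Peg10 at 1.44 and Dlk1 at 1.31 have the largest positive differences and Cdkn1c at -0.89 the largest negative difference.

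The adult organs were compared first with adult stomach. Esophagus had no gene of the 9 measured in the pair at 4-fold above or below stomach (5.31% and 6.31% of 14858 genes). At 2-fold, 3 were higher (14% of all genes) and 1 lower (15.6%). Its largest differences were 1.56 for Dio3, -1.41 for Dlk1 and 1.32 for both Mest and Grb10. In lung, Mest was 4.92-fold higher than in stomach and Dlk1 at least 5.92-fold lower, 1 of 9 genes in each direction against 8.83% higher and 8.97% lower of 14704 genes. With normexp neither passed 4-fold. At 2-fold, 3 genes were higher (18% of all genes) and 2 lower (21.8%) in lung. In intestine no gene passed 4-fold (7.95% of 14997 genes higher and 7.02% lower), but Dio3 was at least 3.78-fold lower than in stomach, and Plagl1 and Peg3 differed by -1.67 and -1.60. These were the 3 genes at least 2-fold lower in intestine (19.2% of all genes), and none was 2-fold higher (17.9%). Between the other organs, Dio3 was at least 5.57-fold higher in esophagus than in lung, 1 of 9 genes (7.73% of 14448 genes higher and 7.83% lower), and at least 11.1-fold higher than in intestine. Plagl1 was higher in esophagus than in intestine by a log2 difference of 2.26, which makes 2 of 9 genes (9.37% of 14923 higher and 10.9% lower). Mest was 6.05-fold higher and Dlk1 at least 5.23-fold lower in lung than in intestine, 1 of 8 genes each way (9.91% and 11% of 14627). With normexp none of these 5 differences passed 4-fold. Peg10 was measured in none of the pairs of adult organs, being not well above background in any adult organ.

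The patterns of the 9 genes well above background on at least 5 arrays, all but Peg10, were compared as Pearson's r between log2 levels, with the dim values of Dlk1 in lung and of Dio3 in lung and intestine raised to the dimmest detected probe of the array where they lay below it. These are descriptions over 7 arrays that share their scaling. E9.5 stomach was the highest array for all of the 9 genes but Dio3 and Sgce. Of the 36 pairs of genes, 10 had an r of 0.8 or more and 5 were below 0, with a median of 0.51. The same count over pairs of all genes was not made. The likest pair was Mest and Grb10 (0.97), followed by Peg3 and Grb10 (0.943), Grb10 and Ndn (0.937) and Mest and Peg3 (0.935), all by the Grb10 probe used. Dio3 and Plagl1 were least alike (-0.34), and Dlk1 and Dio3, of the same domain, had an r of 0.65. Among 13406 other genes, the gene with the pattern most like that of Mest was Haus6 (r of 0.994), of Grb10 Exosc8 (0.998), of Peg3 Nol11 (0.997) and of Dlk1 Cnot8 (0.990). That of Dio3 was Pcdh7 (0.986) and that of Plagl1 Eral1 (0.969). The best of 13406 values over 7 arrays is apt to be high for any gene, so these r carry little weight. They also ignore size: Cnot8 ran from -0.22 to 0.90, Dlk1 from -4.98 to 4.42.

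A wider list of 56 other imprinted genes was read beside these 10, of which 43 had a probe. Between E9.5 and adult stomach 13 of 41 measured passed 4-fold upward (11.5% of all genes) and 6 downward (18.1%), with a median of 0.99. Those listed under the father's copy had a median of 2.16 (8 of 14 higher, 1 lower), and those listed under the mother's copy 0.08 (5 of 22 higher, 5 lower). The other 5, listed as imprinted in some transcript forms only, had a median of 0.26, with 0 past 4-fold. The copy in use was not measured in these tissues. The extremes were Asb4, a neighbour in the Peg10 domain with a difference of 9.93, and Slc22a18 and Kcnq1, in the same imprinted domain as Cdkn1c, with -7.53 and -6.77. Cdkn1c itself differed by 3.52 in the opposite direction. Igf2, the fetal growth factor, was high in all 3 immature samples (6.60 in E9.5 stomach, 7.43 at day 42 and 6.97 at day 46) and between -0.77 and 1.82 in the adult organs.

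At day 42, 3 of 39 of these other imprinted genes were at least 4-fold higher than in adult stomach (7.39% of all genes) and 3 lower (10.3%), with a median of 0.36, shares near those of all genes. Igf2 (7.16), Asb4 (4.50) and Slc38a4 (3.37) were the higher genes. Against E9.5 stomach 5 of 41 were higher (17.1% of all genes) and 10 lower (11.5%), with Nnat at -7.82 and Peg12 at -4.34 among the lower. In all 3 immature samples 11 of 42 lay above every adult organ (10.1% of all genes) and 1, Cobl, lay below (6.77%). Several of the 11 did so by less than the SD between probes (0.86 and 0.84 for day 42 and day 46 against adult stomach). Usp29 was at -4.87 at day 42 and -4.88 in adult stomach, and Ins2 at -3.87 and -3.93. Inpp5f was at 0.51 at day 46 and 0.32 in adult stomach, and Copg2 at 1.32 and 1.11. Of the neighbours of the 10 genes with a probe, Usp29, next to Peg3, differed by 3.10 between E9.5 and adult stomach and by 0.01 between day 42 and adult stomach. Copg2, next to Mest, differed by 0.40 and 0.24. Zim1, on the other side of Peg3, was at least 5.54-fold higher in E9.5 than in adult stomach. It was not well above background at day 42 or in adult stomach.

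**Figure D5:**
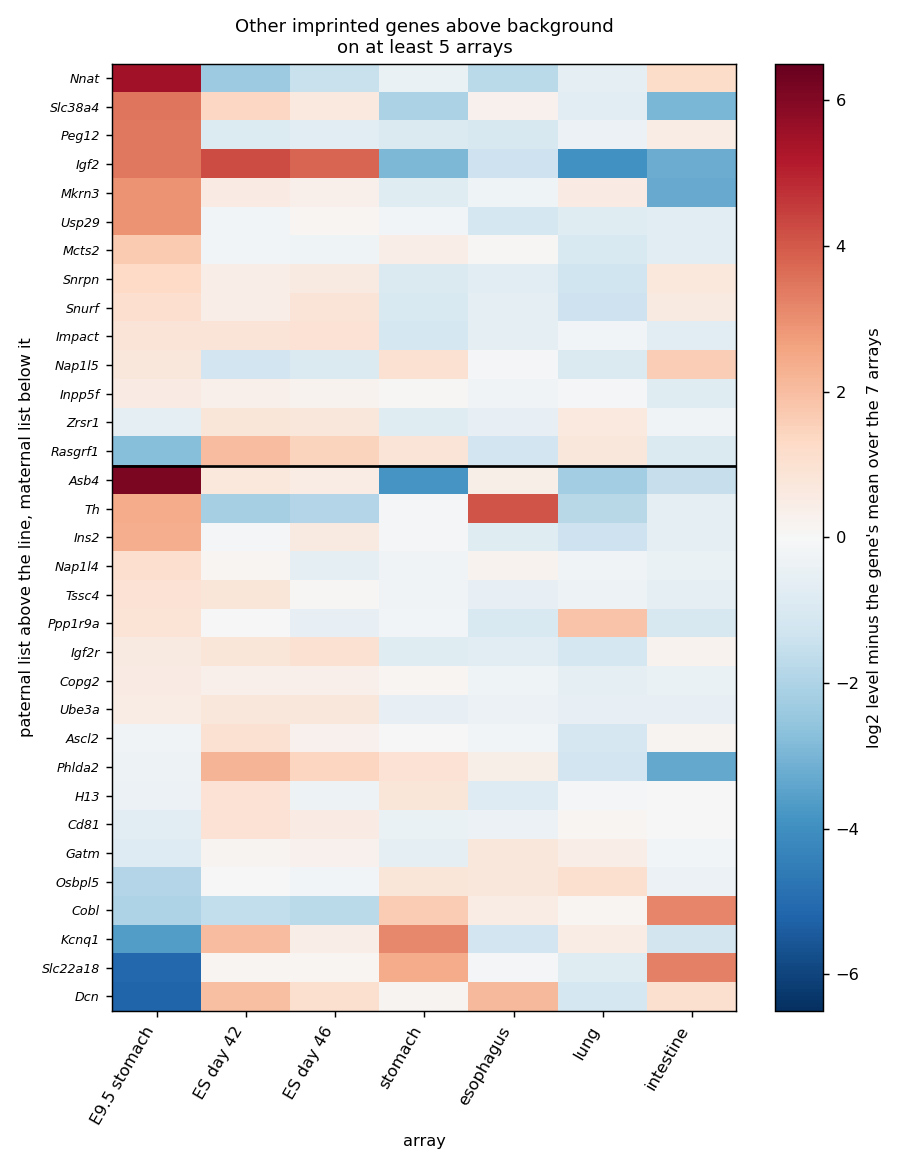
Level of the other imprinted genes above background on at least 5 of the 7 arrays, for each array, minus its mean over the 7 arrays (log2 scale, in colour), with measured values also where a probe was not well above background. Igf2 is high in all 3 immature samples, Asb4 and Nnat are highest in E9.5 stomach, and Kcnq1 and Slc22a18 are low there.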

How the data were processed

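Total RNA from 7 samples was labelled with Cy3 and hybridised to Agilent 4x44K one-colour arrays, 1 array for each of 7 groups. Per the submitters' processing notes the arrays were read with Agilent Feature Extraction 10.5, whereas the headers give 10.7.3.1 on both ES-derived arrays and 10.5.1.1 elsewhere. Each scanner file holds, per the file headers, a background-corrected processed intensity per spot and flags for control, outlier and well-above-background spots. The authors also deposited log2 values scaled to each array's 75th percentile, 41265 per array, with medians of -3.43 for E9.5 stomach, -3.33 for day 42, -2.92 for day 46, -2.86 for adult stomach, -2.98 for intestine, -2.75 for esophagus and -2.68 for lung. They had an r of at least 0.999 with the values used here, on the same scale and in the same direction.

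Here each array's 45018 spots lost control and outlier spots (40 to 728 outliers, 0 saturated), log2 intensities of repeated probes were averaged, and the 75th percentile was subtracted. Repeated probes had a median SD of 0.065 to 0.097. A probe counted as well above background when at least 0.5 of its spots carried the flag. Of 41174 probes, 24375 were named through their accession in RefSeq, 12 by symbol and 45 by synonym, and 16742 stayed unnamed. The probe with the highest mean stood for a gene. A gene dim on both arrays of a pair was left out, and one dim on 1 array gave a bound. The number of arrays limits the precision, and no p-value was computed.

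The list of 10 genes and the marker and gene lists were chosen with earlier results of these data known. Every gene of the 10 was to be named, with the extremes of each list. Ins2 stands in the list of mother's-copy genes although it is known as expressed from the father's copy in yolk sac, and Snrpn and Snurf share a transcript. The alternatives were median centring, quantile normalization, normexp (limma 3.58.1 in R 4.3.3, offset 50, on median signal), the authors' log2 table, the mean over probes, no background filter, genes above background on both arrays, a 2-fold threshold and leaving out an adult organ. Steps were run in Python 3.11.15 and tested on simulated data. The 5-month cultures were not analysed here. For the list of thyroid hormone genes, 1 gene and the counts over the list are not reported here.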

Additional observations from a re-analysis of the deposited data

How the results depend on the processing

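No paired analysis was possible because each group had 1 array. The 39 differences of the 10 genes that passed 4-fold include pairs of adult organs. They kept their sign under every scaling, correction and filter, and with the mean over probes. Single probes were not among these alternatives. Another Grb10 probe gave 0.59 for day 46 minus E9.5 stomach, where the probe used gave -2.33. All 39 stayed past 4-fold under median centring, quantile normalization, the authors' log2 table and no background filter, 38 with the mean over probes and 28 with normexp. Where only genes above background on both arrays were kept, 33 could be computed and all passed. With normexp, 4 of the 10 genes were 4-fold higher at day 46 than in adult stomach (median difference 1.72), 0 were 4-fold higher and 0 lower in lung than in stomach, and 5 other imprinted genes were 4-fold higher in E9.5 than in adult stomach. With median centring, 7 other imprinted genes were 4-fold higher and 1 lower at day 42 than in adult stomach, and 13 were lower at day 46 than in E9.5 stomach. Without the background filter 1 of the 10 genes was 4-fold lower in intestine than in stomach. When a gene had to be detected on both arrays, the median of the 10 genes for E9.5 against adult stomach was 3.52, as Peg10 drops out, and 0 genes were lower in lung than in stomach, as Dlk1 drops out. At 2-fold, 8 of the 10 genes were higher and 1 lower at day 42 than in adult stomach, 2 were higher at day 46 than at day 42, 3 were higher and 1 lower in esophagus than in stomach, 3 higher and 2 lower in lung, and 3 lower in intestine. Of the other imprinted genes at 2-fold, 16 of 39 were higher and 5 lower at day 42 (20.2% and 22.6% of all genes) and 11 of 41 higher and 9 lower at day 46 (19.4% and 22.1%) than in adult stomach. Against E9.5 stomach 12 of 41 were higher at day 42 (28.1%), and 9 of 42 were higher and 16 lower at day 46 (28.7% and 26.4%). In E9.5 stomach 20 of 41 were higher than in adult stomach (27.3%), and at day 46 1 of 40 was higher and 2 lower than at day 42 (9% and 6.47%). Except where a gene dropped out or the threshold itself changed, the cause was not tested. Median centring moved the share of higher genes among all 4-fold calls from 41.8% to 61.6% for day 42 against adult stomach, from 38.8% to 57.4% for E9.5 against adult stomach, from 58.1% to 41.2% for day 46 against E9.5 stomach, and from 57.6% to 25.6% for day 46 against day 42, where it was 33.6% with quantile normalization and 44.3% with normexp. It shifted the median of all genes by 0.43, 0.57, -0.42 and -0.39 in these comparisons. Signal over background limits Peg10 in the adult organs, Dio3 in lung and intestine and Dlk1 in lung, for which bounds alone are given.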

Other observations

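Genes that work with the imprinted growth genes were read from lists chosen with earlier results of these data known, as counts at 4-fold. Of 8 genes of DNA methylation and imprint maintenance measured in the pair, 5 were higher in E9.5 than in adult stomach (11.5% of all genes) and 1 was lower (18.1%), with a median of 2.72 against -0.03 for all genes. Uhrf1, which brings the maintenance methyltransferase to newly copied DNA, had a level of 4.67 in E9.5 stomach, -0.63 at day 42, -1.87 at day 46 and -0.17 in adult stomach. Dnmt3b, which sets new methylation, had 0.92 in E9.5 stomach and -3.24, -3.75 and -3.49 on the same 3 other arrays. None of the 8 passed 4-fold between day 42 and adult stomach (7.39% of all genes higher and 10.3% lower). The cell cycle markers were also highest in E9.5 stomach, and their part in these levels was not tested.

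Klf9, a target of thyroid hormone, had a level of -4.04 in E9.5 stomach, 1.60 at day 42, 1.49 at day 46 and 0.59 in adult stomach. Dio1, a deiodinase that activates the hormone, was 9.12-fold lower at day 42 than in adult stomach. Among the cell cycle inhibitors other than Cdkn1c, Cdkn2b was 207-fold lower in E9.5 than in adult stomach. Cdkn2a had levels of -0.70 at day 42 and 0.24 at day 46, was -4.57 in lung and was not well above background on the other 4 arrays.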
